A study of Mus musculus with 20 samples.

Results

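The sarcomere is the repeating contractile unit of striated muscle, and its proteins come in versions that differ between slow and fast fibres. The genes described here are 48 sarcomere genes, listed by name, each with at least 10 counts in at least 5 of the 20 libraries. All 48 listed genes met that rule, of 53311 rows in the gene count table, and all 48 also passed the filter on low counts used before testing. They comprise 13 genes whose products are typical of slow fibres, 15 typical of fast fibres, 3 developmental forms and 17 shared by fibre types. The libraries came from mouse gastrocnemius, a mixed calf muscle, and the study asked how loss of the clock factor BMAL1 in skeletal muscle and a bout of exercise alter its RNA. All animals carried the label Cre+:iMSBmal1 fl/fl, which by its usual meaning is a Cre transgene with both Bmal1 alleles flanked by recombination sites. The treatment labels read either vehicle or iMSBmal1KO. Muscle was collected at zeitgeber time 13, either from rested animals or 1 h after a treadmill run of 30 min, giving 4 groups of 5 libraries: vehicle at rest, vehicle after exercise, knockout-labelled at rest and knockout-labelled after exercise. The labels name the exercised knockout-labelled samples as acute exercise in the titles and as trained in the descriptions, and they are treated here as acute. The labels give no age, sex or promoter for the Cre, and nothing beyond the sample names says that samples came from separate animals, so p-values measure the spread between these samples.

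In a myofibril, myosin thick filaments pull on actin thin filaments, and calcium binding to the troponin complex lets them do so. Adult mouse limb fibres are classed by their myosin heavy chain: Myh7 in slow type I fibres, Myh2 in type IIa, Myh1 in type IIx and Myh4 in type IIb, in order of rising speed. Light chains, troponins, tropomyosins and binding protein C each have slow and fast counterparts, whereas titin, nebulin and most Z-disc and M-band proteins are common to fibre types. Alpha-actinin has a fast form, Actn3, and a form listed here as shared, Actn2. Cardiac alpha-actin (Actc1) and the embryonic and perinatal myosins (Myh3, Myh8) are made in developing or regenerating muscle and are low in adult limb muscle.

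Library totals ran from 8045154 to 11269812 counts, and the 48 genes together took 16.9% to 23.6% of each library's counts. Arntl, which encodes BMAL1, had mean values of 12.3, 14.3, 14.5 and 16.4 counts scaled to library size (CPM, after TMM scaling) in the 4 groups in the order above. Knockout-labelled over vehicle, the log2 ratio of Arntl was 0.24 in resting muscle and 0.20 in exercised muscle (adjusted p = 0.725 and 0.689, edgeR quasi-likelihood test), so the whole-gene count was not lower in the libraries labelled knockout. Counts over a whole gene do not show whether particular exons are missing. Groups are therefore named by their labels throughout.

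The promoter windows of the genes on which the results turn are printed first, each running from 250 bases before to 50 bases after the RefSeq start (GRCm38.p6), 5′ to 3′ on the gene's strand. Of the 48 genes, 37 had such a window; the other 11 are Tcap, Neb, Myom2, Lmod3, Xirp1, Tnnt3, Tnni2, Actn3, Mylk2, Myoz1 and Myoz3. Mylk4, a myosin light chain kinase family member and the member with the smallest p between knockout-labelled and vehicle libraries, has its window at chr13:32783915-32784214 on the minus strand. Actc1, the gene raised at rest, has its window at chr2:114052826-114053125 on the minus strand. Capitals mark CANNTG, the letters of an E-box, which includes the CACGTG form that BMAL1 with its partner is known to bind.
Mylk4: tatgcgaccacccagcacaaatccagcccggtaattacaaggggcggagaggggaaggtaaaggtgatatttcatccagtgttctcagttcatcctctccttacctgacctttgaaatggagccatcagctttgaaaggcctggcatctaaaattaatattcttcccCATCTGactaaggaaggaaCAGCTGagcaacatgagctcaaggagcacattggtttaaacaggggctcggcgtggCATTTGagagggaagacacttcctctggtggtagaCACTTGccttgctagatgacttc
Actc1: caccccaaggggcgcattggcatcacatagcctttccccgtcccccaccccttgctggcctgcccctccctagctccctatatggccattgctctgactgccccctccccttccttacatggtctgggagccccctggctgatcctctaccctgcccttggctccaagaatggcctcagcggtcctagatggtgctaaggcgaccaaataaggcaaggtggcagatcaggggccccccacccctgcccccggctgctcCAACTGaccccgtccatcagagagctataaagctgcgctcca

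The Mylk4 window holds 4 CANNTG matches and the Actc1 window 1, and neither holds CACGTG. The E-box pattern CANNTG is its own reverse complement, so a match counts for both strands, and it occurs in 72.3% of all 32851 windows of this length, against 34 of the 37 windows of sarcomere genes. CACGTG, itself a form of CANNTG, occurs in 7.15% of all windows and in 2 of these 37. Windows of the slow myosin Myh7 (chr14:54994577-54994876, minus strand) and of the slow troponins Tnnt1 (chr7:4515926-4516225, minus strand) and Tnnc1 (chr14:31208062-31208361, plus strand) are given because Tnnc1 and Tnnt1 were the genes whose levels followed Myh7 most closely. Capitals mark CATTCC on either strand, the letters bound by TEAD factors, so that GGAATG marks a match on the opposite strand.
Myh7: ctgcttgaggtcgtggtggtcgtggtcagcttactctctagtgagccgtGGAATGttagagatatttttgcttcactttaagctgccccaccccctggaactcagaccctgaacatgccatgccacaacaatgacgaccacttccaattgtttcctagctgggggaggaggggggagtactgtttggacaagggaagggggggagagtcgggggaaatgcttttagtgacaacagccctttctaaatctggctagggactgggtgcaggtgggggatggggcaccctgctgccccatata
Tnnt1: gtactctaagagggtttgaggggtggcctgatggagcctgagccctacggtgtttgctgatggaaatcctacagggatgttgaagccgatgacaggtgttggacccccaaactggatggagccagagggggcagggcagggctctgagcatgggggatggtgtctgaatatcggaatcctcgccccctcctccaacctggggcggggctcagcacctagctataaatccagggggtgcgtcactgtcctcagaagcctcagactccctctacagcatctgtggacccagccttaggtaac
Tnnc1: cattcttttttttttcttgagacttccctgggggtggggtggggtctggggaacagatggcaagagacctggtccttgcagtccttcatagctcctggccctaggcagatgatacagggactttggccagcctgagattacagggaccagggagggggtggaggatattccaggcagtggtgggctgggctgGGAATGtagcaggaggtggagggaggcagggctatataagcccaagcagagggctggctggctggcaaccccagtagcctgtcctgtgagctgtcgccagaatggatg

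Myh7 and Tnnc1 each hold 1 CATTCC match and Tnnt1 holds 0. The motif was in 3 of 13 slow windows, 5 of 9 fast windows, 4 of 12 shared windows and 0 of 3 developmental windows, against 14.7% of all windows. These matches describe the letters in the windows only.

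Myh4 was the most abundant adult myosin heavy chain in each of the 20 libraries, as measured in CPM per kb of transcript (lengths from GENCODE M21), a scale on which genes can be compared. Myh4 ranged from 5833 to 15720 CPM per kb with a median of 9522. The medians of Myh1, Myh2 and Myh7 were 465, 367 and 55.7 CPM per kb. As a share of the summed level of the 4 adult chains, Myh4 took 73.1% to 99.4%. The slow chain Myh7 took 0.685% ± 0.592 (SD, n = 5) in vehicle muscle at rest and 0.594% ± 0.727 (SD, n = 5) after exercise. In knockout-labelled muscle it took 1.15% ± 0.896 (SD, n = 5) at rest and 0.408% ± 0.585 (SD, n = 5) after exercise. The SD was of the order of the mean in every group, and the groups overlapped. Between 18.9% and 26.9% of the 50-base stretches of Myh1, Myh2 and Myh4 also occur in another gene, and 22.2% of those of Myh7 occur in Myh6, so reads from these stretches could be split between paralogs.

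**Figure D1:**
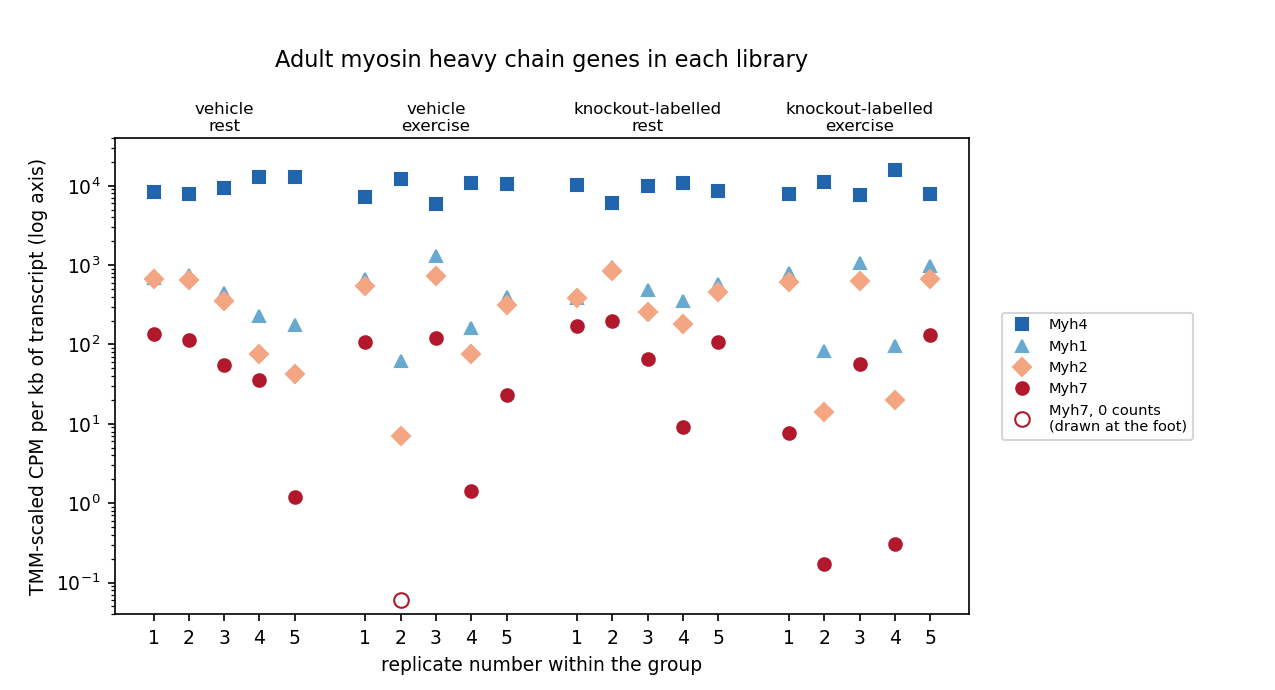
Level of each adult myosin heavy chain gene in each of the 20 libraries, in TMM-scaled CPM per kb of transcript on a log axis, with libraries ordered by group and replicate number. Myh4 (squares) stays within 5833 to 15720, whereas Myh7 (circles) runs from 0 counts (open circle, drawn at the foot) to 198.

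The slow and fast counterparts of each thin-filament and thick-filament protein were far apart in level. In median CPM per kb over the 20 libraries, the tropomyosin-binding troponin was 14250 in its fast form (Tnnt3) and 85.7 in its slow form (Tnnt1). The inhibitory troponin was 8660 as Tnni2 and 34.7 as Tnni1, and the calcium-binding troponin was 9226 as Tnnc2 and 63.3 as Tnnc1. Light chain genes ran the same way, with Mylpf at 7727 against Myl2 at 125 and Myl1 at 7610 against Myl3 at 224. The fast side was thus the more abundant in each of these 5 pairs. Binding protein C was less unequal, at 1765 for Mybpc2 and 210 for Mybpc1. The alpha-actinins were at 3337 for the fast Actn3 and 257 for Actn2, which is listed as shared. The tropomyosins were at 5051 for Tpm1 and 56.5 for Tpm3, although 62.4% of the 50-base stretches of Tpm3 also occur in Tpm3-rs7. Skeletal alpha-actin, Acta1, had the highest median of all 48 genes at 15930 CPM per kb. Among the developmental forms Actc1 was at 120, whereas Myh3 and Myh8 were at 0.287 and 0.219 CPM per kb and never above 7.59 CPM in a library.

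The slow genes differed far more between libraries of one group than between groups. Myh7 in vehicle muscle at rest was 833, 710, 345, 224 and 7.55 CPM in replicates 1 to 5. After exercise it was 662, 0, 751, 8.84 and 142 CPM. In knockout-labelled muscle it was 1051, 1236, 407, 57.0 and 667 CPM at rest and 48.4, 1.08, 349, 1.89 and 811 CPM after exercise. Each group except knockout-labelled at rest thus contained at least 1 library under 10 CPM, and these were vehicle rest 5, vehicle exercise 2 and 4 and knockout-labelled exercise 2 and 4. The SD of log2 CPM over the 20 libraries was 3.72 for Myh7, larger than that of 99.99% of genes tested. It was 3.25 for Tnnt1, 3.08 for Tnnc1 and 2.97 for Tnni1, the slow forms of the tropomyosin-binding, calcium-binding and inhibitory troponins. Vehicle exercise 2 had 0 counts of Myh7, Tnnt1 and Tnnc1. The slow light chain gene Myl6b was the exception among the slow genes, with an SD of 0.43 and values of 2.66 to 12.9 CPM.

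Fast genes other than Myh1, Myh2 and Mylk4 varied less between libraries than the slow genes. Their SDs of 0.17 to 0.42 were larger than those of 19.2% to 72.9% of genes tested. The fast inhibitory troponin Tnni2 had an SD of 0.17 and ran from 5602 to 8550 CPM. The fast genes with a large SD were Myh2 (2.12) and Myh1 (1.30), the heavy chains of the less fast fibres, and Mylk4 (1.03). Within groups the SD was 2.23 for Myh2, 1.39 for Myh1 and 0.37 for Mylk4. Myh2 ran from 43.0 to 5102 CPM, and its lowest library, vehicle exercise 2, was also the lowest for Myh7. The steadiest of all 48 were the shared Z-disc scaffold Ldb3 (cypher) and the actin-binding Xirp2, each with an SD of 0.10. Within the shared class the M-band protein gene Myom3 (SD 1.72), Mybph (1.42), Lmod2, which lengthens thin filaments (1.27), and the alpha-actinin Actn2 (1.01) stood well above that. So did Tcap, at 1.09 over the 20 libraries and 0.62 within groups. In bulk muscle, fewer cells or fibres of a type and less RNA per cell cannot be told apart.

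**Figure D2:**
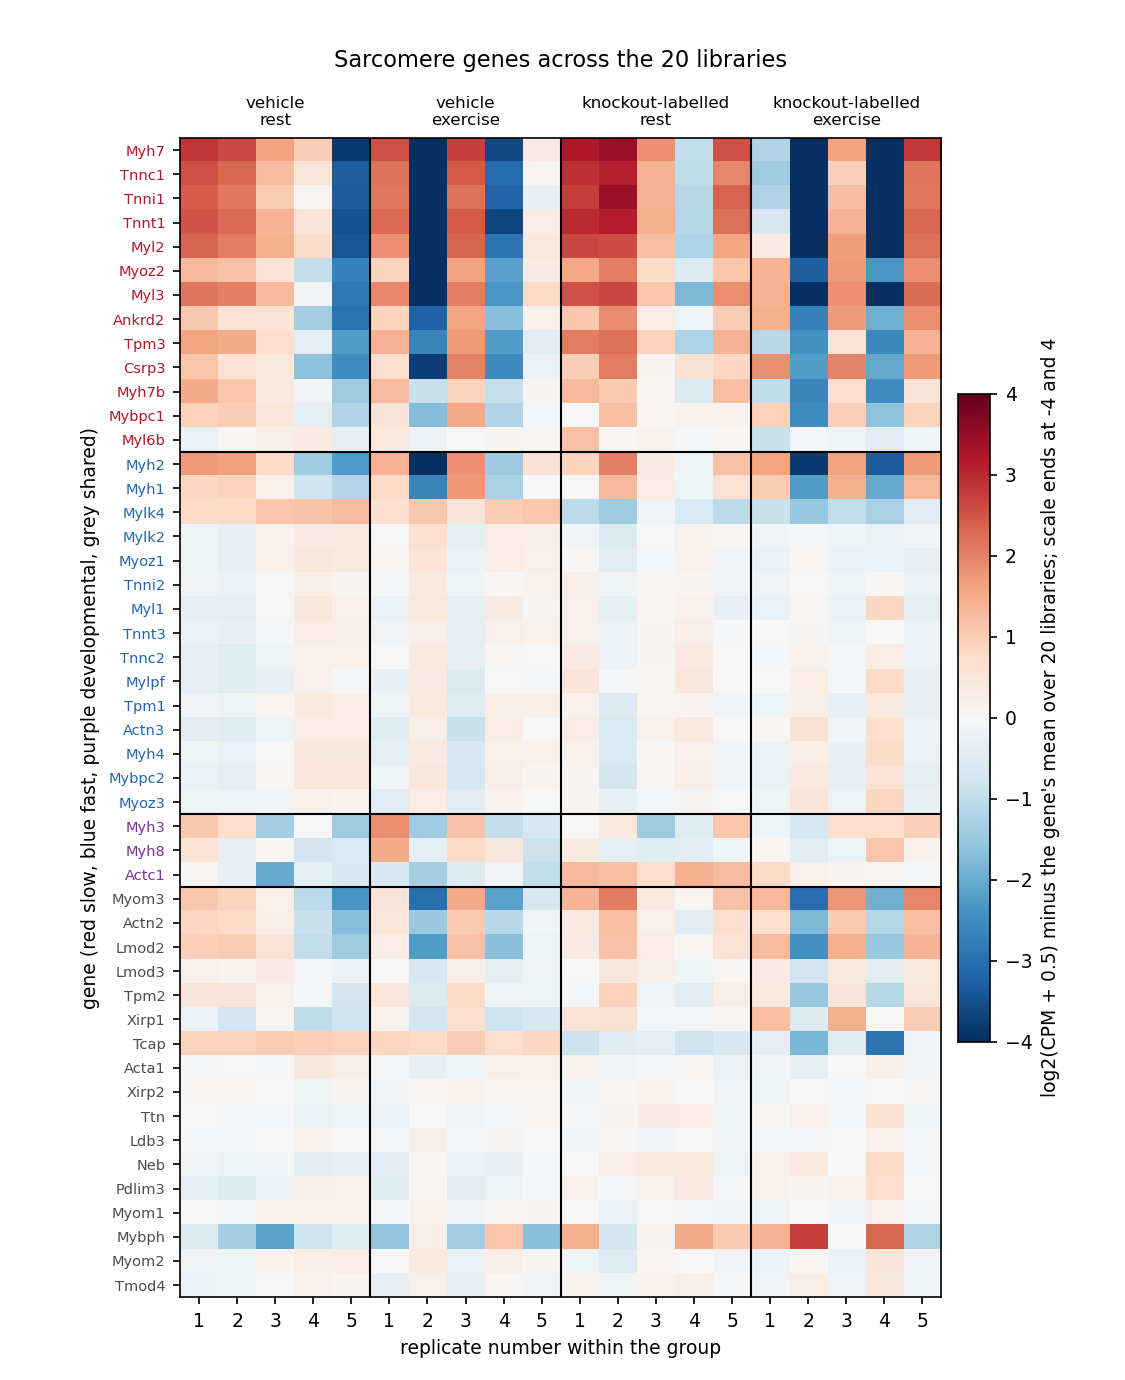
Heat map of log2(CPM + 0.5) minus each gene's mean over the 20 libraries, for all 48 genes (rows, by class) and 20 libraries (columns, by group). Slow genes other than Myl6b, with Myh1, Myh2, Myom3, Actn2 and Lmod2, are blue together in several libraries. These are vehicle rest 5, vehicle exercise 2 and 4 and knockout-labelled exercise 2 and 4. Vehicle rest 4 is also low in Myh2 (462.5 CPM), Myom3 (20.3 CPM), Actn2 (344 CPM) and Lmod2 (57.7 CPM). Mylk4 and Tcap change at the boundary between vehicle and knockout-labelled libraries.

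Most slow genes, Myh1, Myh2 and some shared genes rose and fell with Myh7 from library to library. Over the 20 libraries, Pearson's r of log2 CPM with Myh7 passed an adjusted p of 0.05 (permutation test, 100000 permutations, adjusted over 13559 genes) for 28 of the 47 other members, 18 positive and 10 negative, against 13% of all genes. Among slow genes 11 of 12 passed, with Tnnc1 at r = 0.99 (rho = 0.99), Tnnt1 at r = 0.99 (rho = 0.99) and Myl6b, which did not pass, at r = 0.43 (rho = 0.40, permutation p = 0.0679, adjusted p = 0.218). Among fast genes Myh1 (r = 0.89) and Myh2 (r = 0.93) were positive, and 7 were negative, including Myh4 (r = -0.71, rho = -0.74, permutation p = 0.00037, adjusted p = 0.00813) and the fast alpha-actinin Actn3 (r = -0.68). Among shared genes Actn2, Tpm2, Myom3, Lmod2 and Lmod3 were positive and Myom1, Myom2 and Tmod4 negative. The smallest p these permutations can give is 1e-05. Without the pair of libraries farthest from the median Myh7, vehicle exercise 2 and knockout-labelled exercise 2, 25 members passed, against 7.42% of all genes. With group means removed 37 of 47 passed, 14 of 15 fast genes among them, against 19% of all genes.

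The 5 libraries with under 10 CPM of Myh7 stood apart in Myh7, the next lowest being knockout-labelled exercise 1 at 48.4 CPM. In Myh2 they did not, with 462.5 CPM in vehicle rest 4 against 458.9 CPM in vehicle exercise 4, which is of the 5. In the other 15 libraries, a smaller sample, 6 members passed, all slow, against 0.103% of all genes (14 genes). Among these 15, the slow genes divided by the myosin they followed, which is given as a description. Tnnc1, Tnnt1, Tnni1, Tpm3, Myl2 and Myh7b had r = 0.91 to 0.99 with Myh7 and 0.47 to 0.61 with Myh2. Myoz2 and Ankrd2, a Z-disc calcineurin-binding protein and a stretch-responsive ankyrin-repeat protein, had r = 0.59 and 0.44 with Myh7 and 0.92 and 0.93 with Myh2. Csrp3, the muscle LIM protein, had r = 0.25 with Myh7 and 0.88 with Myh2, and Mybpc1, slow binding protein C, had 0.32 and 0.85. Myl3 lay between, at 0.78 with each. The cut was made on Myh7 itself, which narrows the range of Myh7, and its part in these r was not tested. Over all 20 libraries r with Myh7 and with Myh2 lay closer together. Csrp3 had 0.85 and 0.94, Mybpc1 0.87 and 0.95, Myoz2 0.94 and 0.98, and Tnnc1 0.99 and 0.92. Shared genes with a higher r with Myh2 than with Myh7 included Actn2 (0.96), Lmod2 (0.91), Myom3 (0.85), Tpm2 (0.81), Lmod3 (0.66) and Xirp1 (0.59). Fast genes other than Myh1, Myh2 and Mylk4 had r = -0.92 to -0.62 with Myh2 in these libraries, with Myh4 at -0.88. With Myh7 they had r = -0.58 to -0.38, whereas Myh2 had 0.46. The library knockout-labelled exercise 1 shows the division in single values: Myh7 was 48.4 CPM and Tnnc1 7.52 CPM, among the lower values, while Myh2 was 3761 CPM and Csrp3 111 CPM, among the higher ones. Vehicle rest 4, also among these 15, was the lowest of them in Myh2, at 462.5 CPM with 1116 CPM next. It was lowest in Csrp3 too, at 9.23 CPM with 25.3 CPM next. How far the division, or the r with Myh2, rests on either library was not tested, and points share their libraries, depth and scaling.

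**Figure D3:**
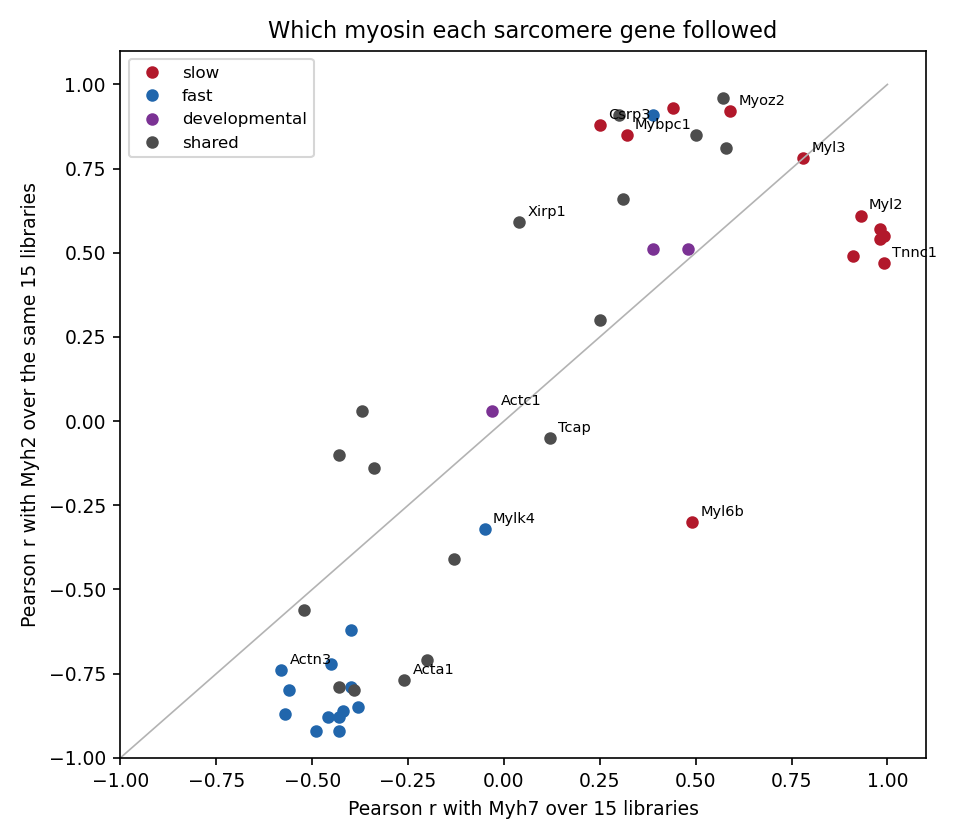
Pearson's r of each member with Myh7 (x axis) and with Myh2 (y axis) in log2 CPM over the 15 libraries with at least 10 CPM of Myh7, coloured by class, with the diagonal as a line. Slow genes at the right edge (r = 0.91 to 0.99 with Myh7) are separate from Csrp3 and Mybpc1 at the top (r = 0.88 and 0.85 with Myh2), and fast genes other than Myh1 and Mylk4 lie at the lower left. Myh2 itself is not drawn.

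The 10 genes of the whole table most like Myh7, by r of log2 CPM over 20 libraries after group means were removed, comprised 6 members: Tnnc1 (0.996), Tnnt1 (0.994), Tnni1 (0.985), Myl2 (0.975), Myoz2 (0.967) and Myl3 (0.957). The others were CT025533.2 (0.992), Mhrt (0.985), the lactate dehydrogenase subunit gene Ldhb (0.961) and Bdh1 (0.954), which encodes a ketone-body dehydrogenase. Exons of Mhrt overlap Myh7 on the opposite strand, and the strand setting of the counting is not given in the sources used here, so their reads cannot be told apart.

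Mylk4 was lower in knockout-labelled muscle in both states. At rest it was 2771, 2750, 3492, 3554 and 3921 CPM in vehicle libraries and 790, 601, 1479, 1076 and 788 CPM in knockout-labelled ones. After exercise it was 2536, 3465, 2299, 3299 and 3521 CPM in vehicle libraries and 882, 564, 820, 655 and 1185 CPM in knockout-labelled ones. Every knockout-labelled library lay below every vehicle library. Mylk4 fell by 1.80 on the log2 scale in resting libraries (SE 0.22, edgeR adjusted p = 2.54e-05) and by 1.88 in exercised ones (SE 0.22, edgeR adjusted p = 1.41e-05). The gene lies at chr13:32700834-32783954 (GENCODE M21, minus strand), and no exon of another gene overlaps it.

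Tcap, which encodes telethonin, the cap that links titin ends at the Z-disc, was lower likewise. At rest it was 2596, 2642, 2858, 2725 and 2678 CPM in vehicle libraries and 776, 1007, 1101, 798 and 915 CPM in knockout-labelled ones. After exercise it was 2586, 2470, 2819, 2230 and 2591 CPM in vehicle libraries and 1095, 399, 1018, 183 and 1319 CPM in knockout-labelled ones. The groups did not overlap, and the lowest values were those of knockout-labelled exercise 4 and 2, which are among the libraries nearly without Myh7. On the log2 scale Tcap fell by 1.55 in resting libraries (SE 0.35, edgeR adjusted p = 0.0134). In exercised libraries it fell by 1.66 (SE 0.35, edgeR adjusted p = 0.00619). The second call was lost when only the 2 groups compared entered the fit (adjusted p = 0.0901).

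Actc1 was higher in knockout-labelled muscle at rest. It was 188, 141, 43.4, 137 and 113 CPM in vehicle libraries and 432, 407, 290, 473 and 426 CPM in knockout-labelled ones. After exercise it was 113, 69.8, 121, 160 and 89.9 CPM in vehicle libraries and 301, 203, 190, 188 and 167 CPM in knockout-labelled ones. The knockout-labelled libraries lay above the vehicle libraries in both states. The log2 fold change was 1.71 in resting libraries (SE 0.30, edgeR adjusted p = 0.00192) and 0.92 in exercised ones (SE 0.29, edgeR adjusted p = 0.0710), so that only the first passed the test. Under DESeq2 the second passed (adjusted p = 0.0114). The difference between the states, as an interaction, was -0.78 (adjusted p = 0.871). The 3 developmental members had a median log2 fold change of 0.06 in resting libraries, and Myh3 and Myh8 were not called in either state. Of 5 markers of satellite cells (muscle stem cells) and regeneration, 0 were called in resting and 1, Myod1, in exercised libraries. The shares of all genes called were 3.86% and 6.42%. The summed level of 6 denervation markers was 16.4 to 29.9 CPM in vehicle and 26.5 to 73.6 CPM in knockout-labelled libraries. Most of that sum was the acetylcholine receptor subunit gene Chrna1, with means of 12.0 CPM in resting and 11.8 CPM in exercised vehicle libraries, and of 22.8 CPM in resting and 35.0 CPM in exercised knockout-labelled ones. Knockout-labelled over vehicle, its log2 ratio was 0.92 in resting (adjusted p = 0.0692) and 1.56 in exercised libraries (adjusted p = 0.00111), the latter 0.84 without the 5 libraries with under 10 CPM of Myh7 (adjusted p = 0.0246). The other markers with enough counts to test were not called in either state: Chrnd was 0.53 and -0.15, Ncam1 -0.07 and -0.51, and Runx1 -0.21 and -0.65. The part of these markers in the Actc1 values was not tested. The summed level of 5 cardiac markers was 1.59 to 7.18 CPM over all libraries, and the cardiac binding protein C gene Mybpc3 had at most 3 counts in each.

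**Figure D4:**
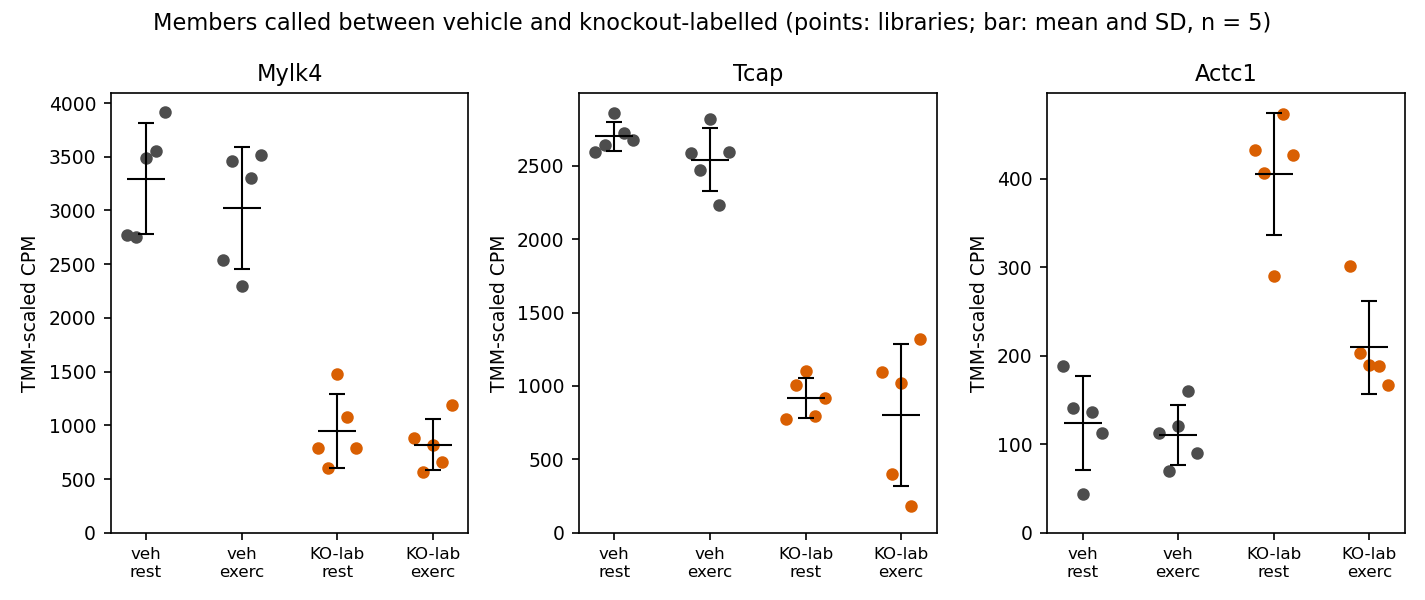
TMM-scaled CPM of Mylk4, Tcap and Actc1 in each library (points) of the 4 groups (veh, vehicle; KO-lab, knockout-labelled; exerc, after exercise), with mean and SD of 5 libraries. Vehicle and knockout-labelled libraries of the same state do not overlap in any panel, and Actc1 after exercise did not pass the test.

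These were all the members called: 3 of 48 at rest, against 3.86% of all genes, and 2 of 48 after exercise, against 6.42% of all genes. The members' shares of 6.25% and 4.17% lie near those backgrounds. At rest all 13 slow genes had positive log2 fold changes with a median of 0.69, but none passed the test (smallest adjusted p = 0.518) and the standard errors reached 1.54, for Myh7. The median over all genes was 0.01. After exercise 5 slow genes were positive and 8 negative, with a median of -0.37. The slow gene with the largest value at rest was Tnni1, at 1.02 (SE 1.26, adjusted p = 0.792, edgeR). Fast genes had a median of 0.00 in both states, and Myh4 was -0.16 at rest and 0.10 after exercise (SE 0.23 each). In the shared class, the giant thin-filament protein gene Neb was 0.42 (adjusted p = 0.152) and 0.47 (adjusted p = 0.0699), and Mybph, a binding protein C relative, was 1.87 (adjusted p = 0.219) and 1.85 (adjusted p = 0.163). Exons of Mybph overlap Adora1 on the opposite strand.

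The exercise contrasts called no member in vehicle or in knockout-labelled muscle. In vehicle muscle 0 of 48 passed, against 0.804% of all genes, with 109 genes called. The members with the smallest p were the perinatal myosin gene Myh8 at 0.84 (adjusted p = 0.646) and Lmod3 at -0.23 (adjusted p = 0.865). In knockout-labelled muscle 0 of 48 passed, against 0% of all genes, of which 639 had an unadjusted p under 0.05. Here the 2 members with the smallest p were Actc1 at -0.95 and Myl6b at -0.74 (adjusted p = 0.9995 for each). The median of the slow genes was -0.26 in vehicle and -0.99 in knockout-labelled muscle. The interaction of treatment label and exercise also called 0 of 48, against 0% of all genes, of which 791 had an unadjusted p under 0.05, and the smallest p belonged to Myl6b at -0.81 (adjusted p = 0.803).

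Myh2 was low in the 5 libraries with under 10 CPM of Myh7. It was about as low in vehicle rest 4 (462.5 CPM), which is not of the 5, as in vehicle exercise 4 (458.9 CPM). Tcap, Mylk4 and Actc1 were set against Myh2 within the vehicle and within the knockout-labelled libraries. Of 6 such relations over 10 libraries each, that of Tcap in knockout-labelled libraries passed (r = 0.89, rho = 0.68, permutation p = 0.0057, adjusted p = 0.0342 over 6). Without knockout-labelled exercise 2 and 4 it was r = 0.53, so that it rested on those libraries. In vehicle libraries r was 0.41 (permutation p = 0.232, adjusted p = 0.377). For Mylk4 r was -0.68 in vehicle libraries (rho = -0.72, permutation p = 0.0280, adjusted p = 0.0840) and -0.72 without vehicle rest 5 and vehicle exercise 2. In knockout-labelled libraries it was 0.40 (permutation p = 0.251, adjusted p = 0.377), but -0.58 without knockout-labelled exercise 2 and 4, so that its sign rested on those libraries. For Actc1 r was 0.23 in vehicle (permutation p = 0.517) and 0.35 in knockout-labelled libraries (permutation p = 0.338), and -0.09 and -0.45 without the same pairs of libraries. Whether the relations differ between vehicle and knockout-labelled libraries was not tested.

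**Figure D5:**
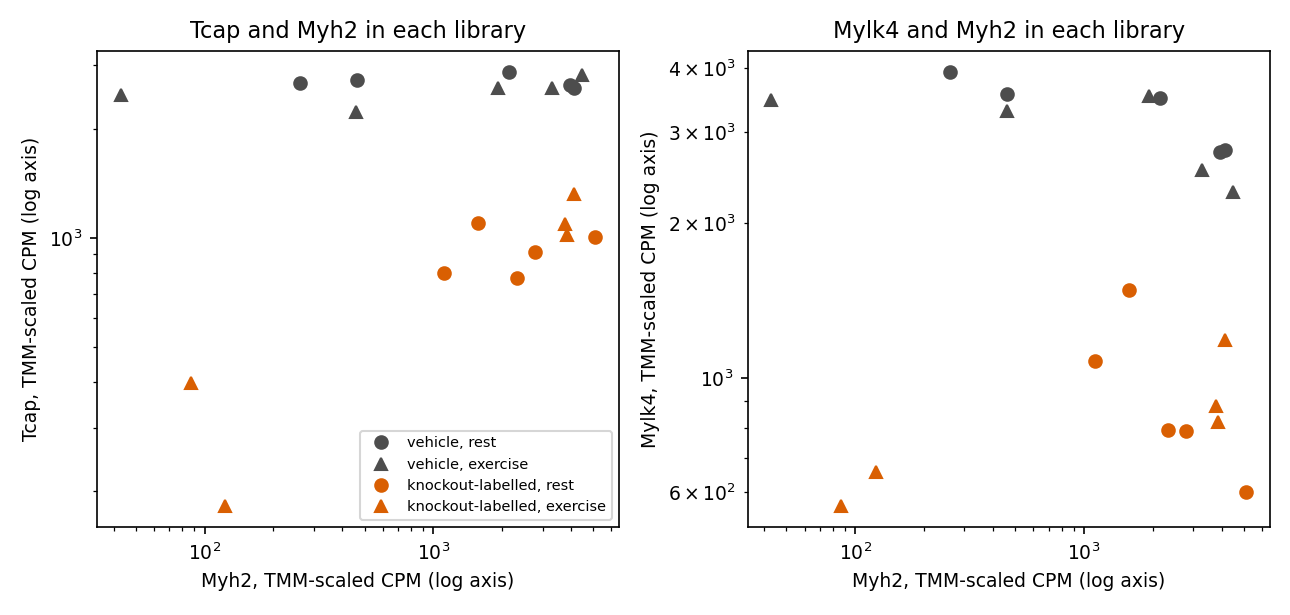
Tcap (left) and Mylk4 (right) against Myh2 in each library, TMM-scaled CPM on log axes, by treatment label (colour) and state (shape). Vehicle libraries keep Tcap between 2230 and 2858 over the whole range of Myh2, and the lowest Tcap values, 183 and 399, belong to the knockout-labelled exercised libraries with 123 and 86.9 CPM of Myh2.

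Further lists of named genes cover other genes of the contractile apparatus and its control, and each value here compares knockout-labelled with vehicle libraries in one state. Of 27 further sarcomere genes 1 was called in resting muscle (3.70%, near the 3.86% of all genes) and 2 in exercised muscle (7.41%, near the 6.42% of all genes). Synpo2, a Z-disc actin-binding protein gene, was lower in resting knockout-labelled libraries by a log2 difference of -0.31 (adjusted p = 0.0272). In exercised muscle the protease gene Capn3 was higher by 0.38 (adjusted p = 0.0337) and the titin-associated ligase gene Trim55 by 0.32 (adjusted p = 0.0321) in knockout-labelled libraries. Of 24 genes for regulators of fibre type, 1 was called in resting muscle (4.17%) and 2 in exercised muscle (8.33%), again near those backgrounds. In resting muscle Nfatc2, a calcineurin-activated factor, was 11.7 to 14.9 CPM in vehicle and 6.20 to 7.46 CPM in knockout-labelled libraries, a log2 difference of -1.02 (SE 0.14, adjusted p = 4.66e-05). In exercised muscle Myod1, a myogenic factor, was higher by 1.15 (adjusted p = 0.0240) and Rbm20, a regulator of titin splicing, lower by a log2 difference of -0.41 (adjusted p = 0.0180, edgeR) in knockout-labelled libraries. Of 8 fast-fibre genes outside the sarcomere 0 were called in resting and 1 in exercised muscle, the AMP deaminase gene Ampd1, higher by 0.90 (adjusted p = 0.0143) in knockout-labelled libraries. Of 5 slow-fibre genes outside the sarcomere none was called in either state (smallest adjusted p = 0.280 at rest and 0.159 after exercise). The exercise contrasts called none of the genes named in this paragraph. Without the 5 libraries nearly lacking Myh7, with fewer libraries in the fit, the exercised-muscle calls were lost, at log2 differences of 0.36 for Capn3 (adjusted p = 0.202), 0.80 for Ampd1 (0.150), 0.83 for Myod1 (0.154), -0.29 for Rbm20 (0.164) and 0.16 for Trim55 (0.478). When each library of the groups compared was left out in turn, Nfatc2 and Ampd1 passed in 10 of 10 fits, Rbm20 in 9 (lost without knockout-labelled exercise 4, adjusted p = 0.0501), Synpo2 in 5, Myod1 in 4, and Capn3 and Trim55 in 3 each.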

How the data were processed

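RNA-seq gene counts of 20 mouse gastrocnemius libraries were analysed. The deposited counts are whole-number counts per gene; per the submitters' processing notes the tools were Partek, STAR 2.7.8a and DESeq2, and the builds mm10 and GRCm39, with no role given. Strand setting and annotation are not given in the sources used here. Counts of 13560 genes passing edgeR's filterByExpr (99.8% of counts) were scaled by TMM and tested with edgeR 4.0.16 (robust quasi-likelihood, 4 groups in 1 fit, 5 contrasts, Benjamini-Hochberg over all genes, threshold 0.05) in R 4.3.3. Tested on simulated data for the contrast at rest, the fit recovered 95.1% of genes changed by 2 log2 units and 62.6% of those changed by 1. Log2 CPM used a prior count of 2, and the heat map a plain offset. Gene positions and lengths are from GENCODE M21, promoters from RefSeq (GRCm38.p6).

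Members, classes and gene lists were chosen with earlier results of these data known. Named members were the adult myosins, slow and fast partners, members called in any contrast, the 2 smallest p where none was called, and the most and least variable of each class; Neb, Pdlim3, Xirp2 and single libraries were named after their values were seen. Within a group no 2 libraries agreed within counting noise (smallest chi-square per degree of freedom 4.04). The labels give no batch. Alternatives were other scalings, DESeq2 1.42.0, limma-voom 3.58.1, other filters, the groups compared alone, the replicate block, and leaving out each library; leaving out 5 libraries with under 10 CPM of Myh7 was added after seeing the data.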

Additional observations from a re-analysis of the deposited data

Results flagged for a closer look

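In 8 of 132 groups of 5 libraries of named members, 1 library lay so far from the other 4 that its gap, divided by the group's range, exceeded Dixon's 95% critical value for 5 values; chance flags about 1 in 20 groups. Actc1 after exercise in knockout-labelled muscle was 301 CPM in replicate 1 against 167 to 203 in the others (ratio 0.732). Ldb3 was 1783 CPM in vehicle rest 4 against 1555 to 1596 (ratio 0.820), and 1853 CPM in knockout-labelled exercise 4 against 1532 to 1582 (ratio 0.844). Mybpc1 was 1740 CPM in knockout-labelled rest 2 against 739 to 827 (ratio 0.913). Myl6b was 12.9 CPM in knockout-labelled rest 1 against 5.18 to 5.98 (ratio 0.897). In knockout-labelled muscle after exercise, Myh8 was 4.05 CPM in replicate 4 against 1.08 to 1.80 (ratio 0.758), Myl1 was 14696 CPM in replicate 4 against 6365 to 8581 (ratio 0.734), and Myoz1 was 1793 CPM in replicate 2 against 1383 to 1469 (ratio 0.790).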

How the results depend on the processing

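Each alternative setting was computed for all 48 members in all 5 contrasts, except members that a stricter filter removed and, for the interaction, the fit of only the groups compared. At rest no call changed over 1054 pairs of member and setting, although 16 uncalled members changed sign in at least 1 setting. After exercise 9 pairs in 4 members changed call (Actc1, Neb, Pdlim3 and Tcap), and 18 members changed sign. The exercise contrasts and the interaction kept 0 calls, with sign changes in 35, 30 and 24 members. Members called after exercise numbered 4 with library size only (adding Neb, adjusted p = 0.0334, and Pdlim3, 0.0255), 4 with DESeq2 (adding Actc1 and Neb, 0.0301), and 2 to 3 when each library was left out. Actc1 after exercise also passed without robust dispersion (0.0451), with only the groups compared (0.0391) and without vehicle exercise 4 (0.0484), and Neb without knockout-labelled exercise 5 (0.0429). Members related to Myh7 numbered 28, against 26 with library size only, 25 without the pair of farthest libraries, 37 with group means removed and 6 without the 5 libraries with under 10 CPM of Myh7, which leaves fewer libraries. In the same order, the shares of all genes were 13%, 13.9%, 7.42%, 19% and 0.103%. Without those 5 libraries Tcap after exercise was -1.22 and Mylk4 -1.53, both still called. Uncalled fold changes of several members changed sign: Myh7 at rest was -0.04 with the replicate block, and after exercise 0.02 with limma-voom and -1.64 to 0.25 with 1 library left out; Tnni1 after exercise was -1.46 to 0.17 with 1 left out; Myh2 was -0.05 at rest without the 5 libraries and -0.17 to 0.59 with 1 left out, and after exercise -0.09 to 0.74; Myh4 after exercise was -0.03 without the 5 and -0.12 to 0.22 with 1 left out. Replicate numbers were not used to pair the samples in the main fit. Same-numbered libraries had mean correlations of 0.09, -0.11, 0.06, 0.24 and -0.05, and 7 of 20 correlated best with their own number. The correlations among libraries numbered 4 were all positive, at 0.17 to 0.32. Such correlations cannot settle whether the samples are paired. The replicate block changed no call of a member. With no filter on low counts Synpo2 (adjusted p = 0.0547), Myod1 (0.0558), Capn3 (0.0662), Trim55 (0.104) and Ampd1 (0.0599) lost their calls.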
